A study of Mus musculus with 6 samples.

Results

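Genes whose products build and run the cilium were followed in pineal glands of newborn mice with and without the transcription factor gene Neurod1. The set was fixed by name and held 36 genes, of which 33 had at least 1 probe set that the platform annotation assigned to that gene alone, among 18193 genes named in this way. Where a gene had several probe sets, the one with the highest mean over the 6 arrays stood for it. After the dimmest 40% of probe sets were left out, 32 of the 33 genes remained among the 12797 genes tested, and all 32 lay above that limit in both groups. Rp1 did not pass, and the expression of Rpgrip1l, Arl6 and Arl13b was not analysed here.

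All mice were of strain 129 and were taken by day at postnatal day 0 from a cycle of 12 h light and 12 h dark. The wildtype group had 3 pools and the group homozygous for the Neurod1 knockout had 3 pools. Each pool joined 3 whole glands and was run on 1 Affymetrix array after a single round of RNA amplification, so animals within a pool cannot be told apart. The labels call the line both a transgenic and a knockout, and they do not say which part of Neurod1 was altered. The comparison asks which transcripts differ at birth in glands that lack this factor.

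A cilium grows from a basal body as a bundle of microtubules, and proteins reach it by transport and not by local synthesis. Intraflagellar transport (IFT) trains carry cargo along the bundle. IFT-B runs outward on kinesin-2, and IFT-A belongs to the return route. The BBSome, named after Bardet-Biedl syndrome, links membrane proteins to these trains, and the transition zone at the base works as a gate. The outer segment of a retinal photoreceptor is a modified cilium, with the connecting cilium as its transition zone. Pinealocytes of mammals descend from the same lineage as photoreceptors and express many photoreceptor genes. Factors of the RFX family bind a promoter element called the X-box in many cilium genes.

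Promoters were searched first for this element, because it is a sequence feature that played no part in choosing the genes. RefSeq promoters of build GRCm38.p6, from 250 bases before to 50 after a gene's start, were at hand for 32 of the 36 genes. These 32 include Rpgrip1l, Arl6 and Arl13b and lack Rp1, Ift80, Ift81 and Ift122, so they are not the 32 tested on the arrays. The X-box was searched on both strands as GT, CC, G and AAC with free bases between them in the spacing of the RFX consensus. It was found in the promoters of 6 of the 32 genes (18.8%), namely Ahi1, Bbs1, Bbs4, Bbs7, Ift57 and Nphp4. Among 10307 tested genes with a promoter the share was 3.09%, and among all 32851 promoters of this length it was 2.17%. A gene counted once if any of its promoters matched, while shares of all promoters count each promoter singly. Counted by gene over all 27025 genes with a promoter, the X-box share was 2.49%. The core GTTGCC, which lies inside some of the X-box matches, occurred in 14 of the 32 genes (43.8%). It was in 15% of tested genes, 14.1% of all 27025 genes and 12.5% of all promoters. The matches below were found by the X-box pattern, so their likeness at its fixed bases follows from the search. Each is given in the direction of its gene, with the X-box in capitals, and the first 2 are shown with their flanks.

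Bbs7, chr3:36613437-36613570, minus strand: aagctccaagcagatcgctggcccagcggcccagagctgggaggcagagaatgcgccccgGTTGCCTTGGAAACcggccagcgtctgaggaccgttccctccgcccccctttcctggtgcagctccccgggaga

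Ift57, chr16:49699147-49699280, plus strand: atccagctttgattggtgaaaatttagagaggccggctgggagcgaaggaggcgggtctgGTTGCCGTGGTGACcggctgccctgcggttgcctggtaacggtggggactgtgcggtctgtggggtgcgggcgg

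Bbs1, chr19:4906613-4906626, minus strand: GTTGCCAAGGCGAC

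Ahi1, chr10:20952568-20952581, plus strand: GTTACCTAGGCAAC

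Bbs4, chr9:59353472-59353485, minus strand: GTCGCCCGGGAAAC

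Nphp4, chr4:152477911-152477924, plus strand: GTCTCCTAGGTAAC

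The matches of Bbs7 and Ahi1 read as an X-box on both strands. Those of Bbs1 and Ift57 fit the pattern only on the strand opposite to the one printed. Motifs of NEUROD1-like factors and of CRX had shares nearer to those of the array, or below them. CAGATG, an E-box that NEUROD1 and related factors bind, was in 5 of 32 genes (15.6%) on either strand, against 14.1% of tested genes and 17.2% of all promoters. CAGCTG, which is its own reverse complement, was in 3 of 32 genes (9.38%), against 18.0% of tested genes and 16.3% of all promoters. TAATCC, a binding site of the photoreceptor and pineal factor CRX, was in 3 of 32 genes (9.38%), against 7.15% of tested genes and 7.06% of all promoters. Counted by gene over all 27025 genes with a promoter, the shares were 19.2% for CAGATG, 18.3% for CAGCTG and 8.14% for TAATCC. All of these are letter matches in a short window, and the difference between the set and other genes was not tested. The plot of motif matches sets the shares of the set and of tested genes side by side.

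**Figure D1:**
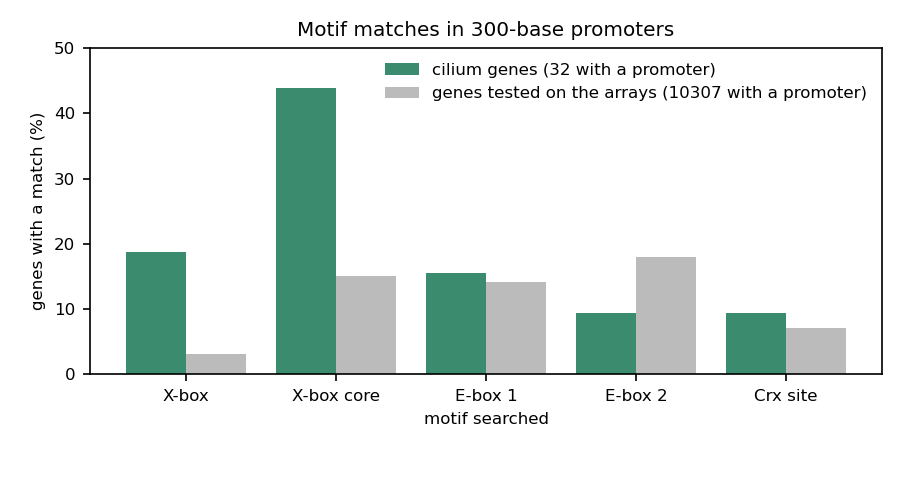
Share of genes (%) with at least 1 match in a 300-base promoter. Green bars are the 32 cilium genes with a promoter, and grey bars 10307 genes tested on the arrays. E-box 1 is CAGATG, E-box 2 is CAGCTG and the X-box core is GTTGCC. The X-box and its core stand higher in the cilium genes (18.8% and 43.8%) than on the array (3.09% and 15%), while E-box 2 stands lower (9.38% against 18.0%).

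Neurod1 itself separated the groups. Its signals were 9027, 9301 and 7519 in wildtype pools 1, 2 and 3, and 390.2, 524 and 122.5 in knockout pools 1, 2 and 3, so the target followed the labels. Knockout minus wildtype came to −4.67 on the log2 scale (SE 0.45, limma adjusted p 0.0362). Here and below a signal is the deposited linear intensity, a log2 difference is taken on log2(signal + 38.6), and p-values are adjusted by Benjamini-Hochberg over 12797 genes. Neurod1 was the 1 gene called at an adjusted p under 0.05, which is 0.00781% of those tested, and 0 of the 32 cilium genes were called. The adjusted p was 0.998 or above for every cilium gene in limma. With the pool number as a block it was 0.768 or above for every one. At an unadjusted p under 0.05 there were 3 cilium genes with lower values (175 of all genes, 1.37%) and 0 with higher values (253 of all genes, 1.98%). In the fit with the pool number as a block there were 3 with lower values, against 3.16% of all genes. Cep290 and Ttc8 were in both counts, Mak in the first alone and Tulp1 in the second alone.

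Some libraries held transcripts of other cells. The 10 choroid plexus markers tested of 12 listed summed to a signal of 3582 to 78975 in the wildtype pools and of 3405 to 98777 in the knockout pools, lowest in wildtype pool 1 and knockout pool 3. Ttr made up much of the higher sums, with 898, 38903 and 60484 in wildtype and 87464, 58636.5 and 685 in knockout. The 8 spermatid markers tested of 16 summed to 500.3, 4639 and 1079 in wildtype, and to 1088, 30006 and 567 in knockout. The 11 tested genes of the motile axoneme, of 24 listed, summed to 1619 to 4943 in wildtype and 2349 to 4670 in knockout. Foxj1, the regulator of motile cilia, did not pass the filter, with signals of 18.2 to 121 in wildtype and 31.0 to 73.9 in knockout. The 10 ribosomal protein genes tested summed to 288156 in knockout pool 1 and to 79042 to 134658 in the other 5 pools. Of the pinealocyte markers 9 of 10 were tested, and 8 of these had a lower mean in knockout. They summed to 35719 to 53323 in wildtype and 24984 to 43058 in knockout, and Tph1, the tryptophan hydroxylase gene of the gland, ran from 2755 to 15095 over the 6 pools. Crx, another of these markers, had a log2 difference of −0.44 (SE 0.49). In whole glands, fewer pinealocytes and less RNA per cell cannot be told apart. The part of these differences in the results below was not tested.

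As a set, the cilium genes leaned to lower values in the knockout, and the lean came mainly from 1 pair of pools. Of the 32 genes, 20 had a lower mean in knockout, against 46.8% of all genes, and the median log2 difference was −0.13, against 0.03 over all genes. Within pool number 1 there were 15 of 32 genes lower (44.3% of all genes), and within number 2 there were 16 (49.7% of all genes). Within number 3 there were 30 (54.4% of all genes). The median difference was 0.03, 0.07 and −0.43 within numbers 1, 2 and 3, where that of all genes was 0.11, 0.00 and −0.06. Knockout pool 3 held the lowest signal of the 6 for 18 of the 32 genes, as it did for 25.7% of all genes. Without that pool 15 of 32 genes were lower, against 42.2% of all genes, and the median was 0.04, against 0.079 over all genes. Centring every array on its median moved the median of all genes to −0.11, and then 25 of 32 cilium genes and 62.3% of all genes had lower means.

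Lower in knockout within all 3 numbers were 9 of the 32 genes, against 15.4% of all genes. These were Ttc8, Mkks, Kif3b, Cep290, Ahi1, Lca5, Tulp1, Mak and Ift80. Higher within all 3 numbers were 0, against 14.9% of all genes. For 6 genes, Cep290, Ttc8, Lca5, Mak, Mkks and Kif3b, every knockout pool lay below every wildtype pool, against 4.33% of all genes. On the probe set that stood for each gene, the reverse held for 0 of 32, against 5.77% of all genes. The plot of differences by role shows each gene with its interval.

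**Figure D2:**
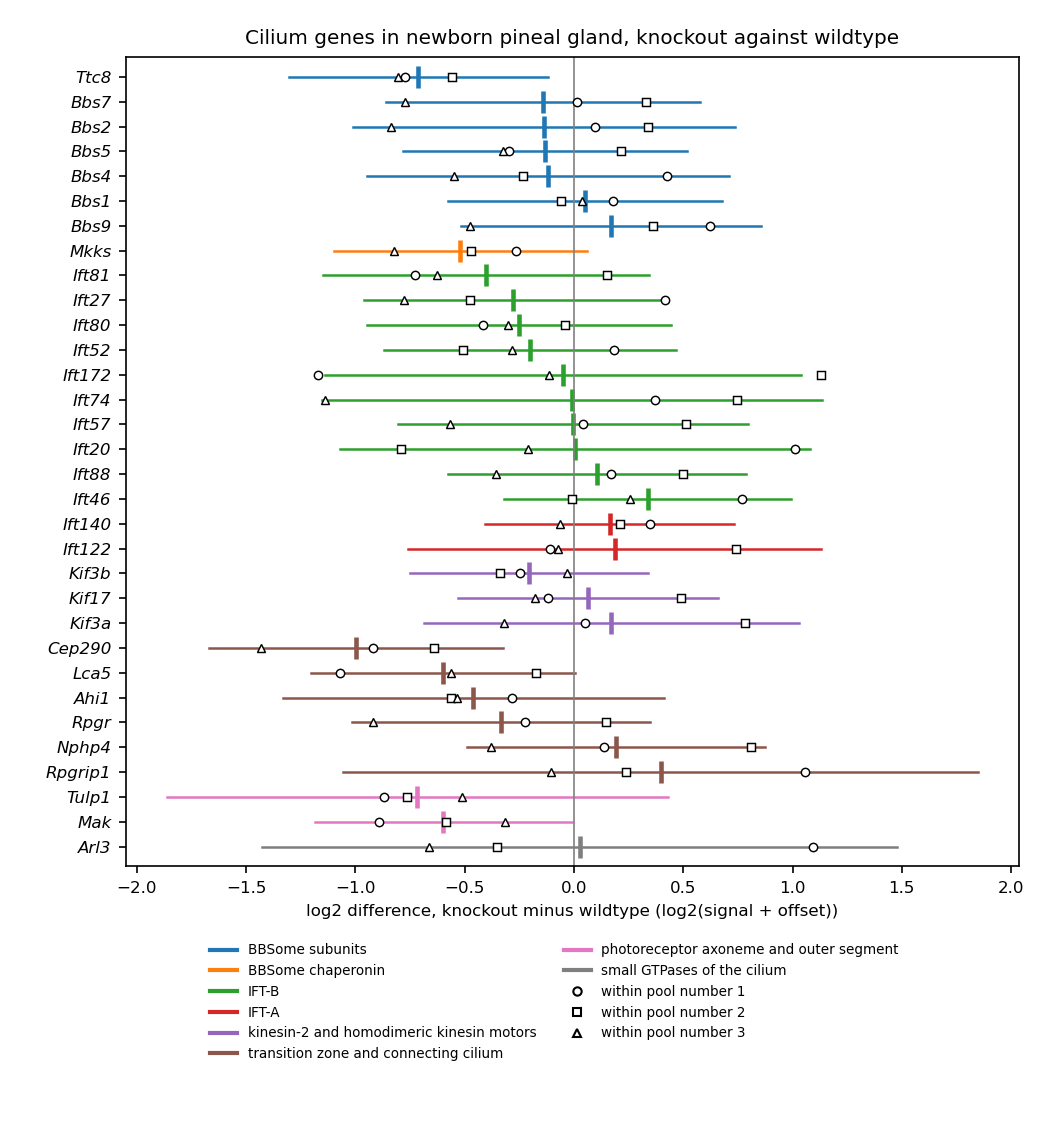
Log2 difference, knockout minus wildtype, for 32 cilium genes in groups by role (colours). The vertical tick is the mean difference, the line its 95% confidence interval from limma (unadjusted), and the symbols the differences within pool numbers 1 (circle), 2 (square) and 3 (triangle). Cep290 has the lowest mean difference (−0.997), and triangles lie left of 0 for 30 of 32 genes.

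At the transition zone, Cep290 had the lowest values relative to wildtype. It encodes a large protein that tethers the membrane to the microtubules at the ciliary gate, and human mutations cause Leber congenital amaurosis and Joubert syndrome. Its signals were 945, 649 and 1258 in wildtype pools 1 to 3, and 482, 402 and 443 in knockout. The knockout pools lay close together and the wildtype pools spread over a wider range, with no overlap. The ratio of means was 0.465, and the log2 difference was −0.997 (SE 0.30, 95% interval −1.67 to −0.33, limma adjusted p 0.998). Cep290 was measured by a single probe set.

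Lca5, which encodes the ciliary protein lebercilin, had signals of 455, 300.2 and 371 in wildtype and 197, 262 and 239 in knockout. The groups did not overlap, and the log2 difference was −0.60 (SE 0.27). A dimmer second probe set of Lca5 gave 0.31, and the mean of both gave −0.15. Ahi1, the Joubert syndrome gene of the transition zone, had 3803, 2338 and 2168 in wildtype and 3115, 1570.4 and 1486 in knockout. The groups overlapped, since both pools numbered 1 stood high, and the Ahi1 difference was −0.29, −0.56 and −0.53 within numbers 1, 2 and 3. Its mean difference of −0.46 (SE 0.39) moved with single pools. Leaving out wildtype pool 1 gave −0.21, leaving out knockout pool 3 gave −0.27, and the value was −0.80 when knockout pool 1 was dropped.

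The retinitis pigmentosa gene Rpgr and its partner Rpgrip1 had mean differences of opposite sign on the probe sets that stood for them. Rpgr had signals of 1741, 1620.2 and 2076 in wildtype and 1484, 1796 and 1080.0 in knockout, with a log2 difference of −0.33 (SE 0.30). It was −0.14 without knockout pool 3, and −0.04 without both pools numbered 3. Rpgrip1, which anchors RPGR in the connecting cilium, had 1316, 2452 and 7859 in wildtype and 2778, 2897 and 7310 in knockout. Both pools numbered 3 stood high, whatever the genotype. The Rpgrip1 difference was 0.40 (SE 0.64) without the block, and the SE was 0.29 with the pool number as a block. A second Rpgrip1 probe set was not high in number 3, with 1408, 1209 and 1295 in wildtype and 1611, 1792 and 515 in knockout. It gave a log2 difference of −0.17, so these 2 probe sets disagreed on which pools were high and on the sign. The other, dimmer Rpgrip1 probe set above the filter was again high in number 3, with 171, 134.0 and 317 in wildtype and 218.5, 164 and 385 in knockout, and gave a log2 difference of 0.26. Nphp4, a nephronophthisis gene of the gate, had signals between 191 and 258 in wildtype and between 189 and 364 in knockout.

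Both tested genes of the photoreceptor axoneme and outer segment had lower means. Mak, a kinase gene of photoreceptors and male germ cells that restrains ciliary length, had signals of 336, 322 and 271 in wildtype and 163.5, 201 and 210.4 in knockout. The groups did not overlap, and the log2 difference was −0.60 (SE 0.26, 95% interval −1.18 to −0.01, limma adjusted p 0.998). The second Mak probe set did not pass the filter. Tulp1, a tubby-like gene needed for traffic to the outer segment, had 2502, 1412 and 696 in wildtype and 1352, 815 and 476 in knockout. Signals were ordered by pool number in both groups, and within numbers 1, 2 and 3 the Tulp1 difference was −0.87, −0.76 and −0.51. The mean difference of −0.72 had an SE of 0.51 without the block and of 0.22 with the pool number as a block, where the limma adjusted p was 0.768. Leaving out wildtype pool 1 gave −0.28, and dropping wildtype pool 3 gave −1.18. Knockout pool 3 and knockout pool 1 acted likewise, with −0.36 and −1.07 when each was dropped. Rp1, an axonemal microtubule gene of photoreceptors, had signals of 25.0 to 162 in wildtype and 68.9 to 122 in knockout.

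**Figure D3:**
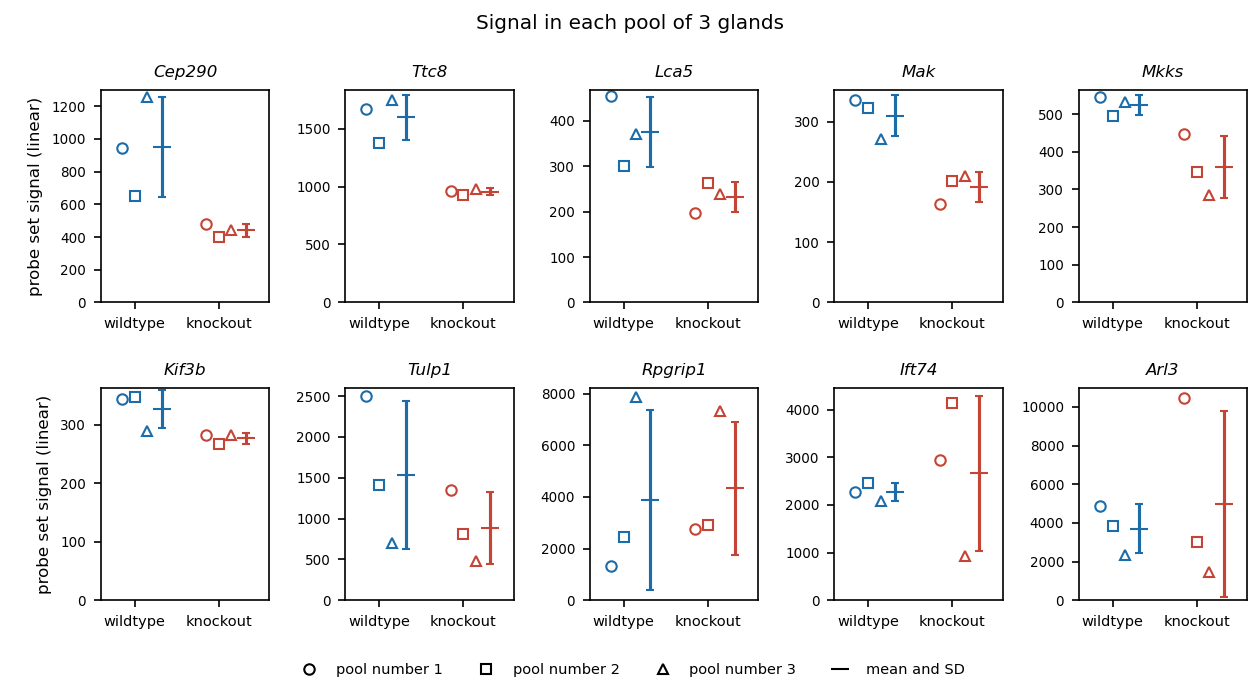
Linear probe set signal of 10 cilium genes in each pool, wildtype in blue and knockout in red, with the mean and SD over 3 pools beside the points. The groups do not overlap for Cep290, Ttc8, Lca5, Mak, Mkks and Kif3b, Tulp1 and Rpgrip1 differ by pool number in both groups, and Ift74 and Arl3 have 1 knockout pool above all others (4139 in pool 2 and 10487 in pool 1).

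Among genes of the BBSome, Ttc8 stood apart from the other subunits. It encodes the subunit BBS8, with tetratricopeptide repeats, and had signals of 1668, 1378 and 1747 in wildtype and 959.8, 923 and 982 in knockout. The knockout pools lay within a narrow range below all wildtype pools. The ratio of means was 0.598, and the log2 difference was −0.71 (SE 0.26, 95% interval −1.31 to −0.12, limma adjusted p 0.998). It lay between −0.81 and −0.65 when any 1 pool was left out. Ttc8 was measured by a single probe set.

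The other 6 subunits tested, Bbs1, Bbs2, Bbs4, Bbs5, Bbs7 and Bbs9, had log2 differences between −0.14 and 0.17, with SEs between 0.28 and 0.39. On the probe set that stood for each gene, their groups overlapped in each case. The intervals still allowed sizeable differences, from −0.58 to 0.68 for Bbs1 and from −1.01 to 0.74 for Bbs2. Bbs1, whose product contacts the small GTPase ARL6, had signals of 733, 542 and 648 in wildtype and 835.5, 518 and 666 in knockout. Bbs4 had 4 probe sets above the filter, and 1 of these gave a log2 difference of 0.75 while the other 3 gave −0.12, −0.33 and −0.27. The probe set at 0.75 had signals of 199.9, 297.5 and 244 in wildtype and 481.3, 385 and 451.4 in knockout. On it every knockout pool lay above every wildtype pool. Bbs2, Bbs4, Bbs7 and Bbs9 each had their lowest signal among knockout pools in pool 3, at 153.5, 430.1, 280.5 and 184. Whether the Ttc8 difference differs from that of the other subunits was not tested.

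Mkks, a chaperonin-like gene whose product helps to assemble the BBSome, had signals of 546, 495 and 533 in wildtype and 447, 346 and 285 in knockout. The groups did not overlap, and the log2 difference was −0.52 (SE 0.26). A dimmer second Mkks probe set gave 0.23, and the mean of both gave −0.14.

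Genes of the IFT trains had differences on both sides of 0. Of 10 IFT-B genes tested, 7 had lower and 3 had higher means, with a median log2 difference of −0.03, and 0 of the 10 had groups that did not overlap, against 10.1% of all genes in either direction. Ift88, the gene of the Polaris protein whose loss prevents ciliary assembly, had signals of 837, 622 and 689.5 in wildtype and 947, 895 and 530.3 in knockout, a difference of 0.10 (SE 0.30). Ift81, whose product binds tubulin together with that of Ift74, had 1983, 1296.5 and 1258.5 in wildtype and 1181, 1442 and 800.5 in knockout. Its difference of −0.40 (SE 0.33) was −0.20 without wildtype pool 1 and −0.18 without knockout pool 3. Ift46 had the highest positive difference of the group, 0.34 (SE 0.29), with signals of 1128, 1711 and 1638 in wildtype and 1947, 1699 and 1963 in knockout. It was 0.15 without wildtype pool 1. Ift80, a skeletal ciliopathy gene, was lower within all 3 numbers by small amounts, at −0.42, −0.04 and −0.30. Ift27, Ift52 and Ift172 had log2 differences of −0.28, −0.20 and −0.05. A dimmer Ift27 probe set above the filter gave 0.07, and the mean of both gave −0.10. Leaving out 1 pool moved Ift27 to −0.50 (knockout pool 1 dropped), −0.15 (knockout pool 3 dropped) or −0.16 (wildtype pool 3 dropped). Ift52 moved between −0.45 and −0.038 on leaving out the same knockout pools, with −0.13, −0.33 and −0.12 without wildtype pool 2, wildtype pool 3 and knockout pool 2. The Ift80 mean difference of −0.25 became −0.046 without knockout pool 1, −0.090 without wildtype pool 3 and −0.39 without knockout pool 3.

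Single pools set the values of several IFT genes. Ift74 had signals of 2265, 2457 and 2078 in wildtype and 2941, 4139 and 923 in knockout. The knockout pools lay on both sides of the wildtype range, and leaving out knockout pool 2 or 3 turned the Ift74 difference of −0.01 into −0.44 or 0.62. Ift57 was likewise highest in knockout pool 2 and lowest in knockout pool 3, at 1476 and 618, against 934.9 to 1180.1 in wildtype. The kinesin-2 motor gene Kif3a had 1164 in knockout pool 2, 412 in knockout pool 3 and 524 to 781.5 in wildtype. Its other 3 probe sets were not high in knockout pool 2, with 533.6, 505 and 337. Their wildtype signals were 517.6 to 664.9, 459.3 to 667.6 and 503.1 to 647.5. Knockout pool 2 is the library in which spermatid markers stood highest, with Crisp2 at 17677 and the protamine gene Prm1, named after its values were seen, at 3856. The part of these transcripts in the Ift74, Ift57 and Kif3a signals was not tested. Ift20, whose product shuttles between the Golgi and the cilium, had 908, 882.5 and 638 in wildtype and 1873, 493 and 547 in knockout. Arl3, a small GTPase gene for the release of lipid-modified cargo inside the cilium, had 4896, 3832 and 2365 in wildtype and 10487, 2995 and 1478 in knockout. For both genes knockout pool 1, the library with the highest ribosomal protein signals, stood above the other 5 pools. Without it the difference was −0.59 for Ift20 and −0.74 for Arl3, against 0.00 and 0.03 with all pools. The part of the ribosomal difference in these values was not tested.

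The 2 IFT-A genes tested had overlapping groups. Ift122 had a log2 difference of 0.19 (SE 0.42), with signals between 189 and 452.5 in wildtype and between 178 and 509 in knockout. Ift140 had 0.16 (SE 0.25), with signals between 319 and 394 in wildtype and between 374 and 505 in knockout, and dropping knockout pool 1 or wildtype pool 2 gave 0.032 or 0.075.

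Of the motor genes, Kif3b had groups that did not overlap but the smallest difference of the 6 such genes. Its signals were 343, 347 and 289 in wildtype and 283, 266 and 282 in knockout, so wildtype pool 3 lay just above knockout pool 1. The log2 difference was −0.21 (SE 0.24). A second Kif3b probe set above the filter gave −0.08 with overlap. Kif3a had a log2 difference of 0.17 (SE 0.38), and its other 3 probe sets gave −0.08, −0.11 and −0.45. Kif17, the gene of a homodimeric kinesin, had 0.06 (SE 0.26). A dimmer Kif17 probe set above the filter gave 0.45, and the mean of both gave 0.26.

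All 6 genes with non-overlapping groups had a promoter in the table. Of these 6, 0 held the X-box, against 18.8% of the set and 3.09% of tested genes, a count too small to set them apart. Its core was in 1 of the 6, Lca5. CAGATG was in 0, CAGCTG in 1, Kif3b, and TAATCC in 1, Mak. Among the 6 genes with an X-box, log2 differences ran from −0.46 for Ahi1 to 0.19 for Nphp4. No match says only that these letters are not in this window.

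Other cilium genes, from lists that are not part of the set, were counted in the same way. Of 15 other transition zone genes tested, 10 had lower means, with a median of −0.06, and of 14 other genes of the photoreceptor cilium, 10 had lower means, with a median of −0.33. Of 13 other IFT genes 6 were lower (median 0.0041), of 9 genes of ciliary dynein and kinesin 5 were lower (median −0.0013), and of 7 other BBS genes 5 were lower (median −0.17). In these lists 0 genes passed an adjusted p under 0.05 in limma, and 0 had an unadjusted p under 0.05. With the pool number as a block, 6.24% of all genes had an unadjusted p under 0.05 in either direction. Those in these lists were 3 photoreceptor cilium genes (Rp2, Pde6d and Unc119), 1 other IFT gene (Ttc30a1) and 1 dynein and kinesin gene (Kif7). Kif7 was higher in knockout and the others were lower. None of these 5 passed adjustment (limma adjusted p 0.768 for each). Kif7 had signals of 306.7, 76.9 and 24.5 in wildtype and 349.8, 280.6 and 96.7 in knockout. Of these, 76.9 and 24.5 in wildtype and 96.7 in knockout lay under the filter limit. The filter itself can therefore favour a higher knockout mean for Kif7. Groups did not overlap for 1 of the transition zone genes, Cc2d2a, and for 1 of the photoreceptor cilium genes, Rp2, both lower, where 4.33% of all genes did so. They did not overlap for 1 other IFT gene, Rabl2, and for 1 of the dynein and kinesin genes, Dync2h1, both higher, where 5.77% of all genes did so. Counts this small are near those shares. These genes were named after their values were seen. Cc2d2a, a gate gene, had signals of 820.5, 599 and 750.2 in wildtype and 500.1, 500 and 463 in knockout, a log2 difference of −0.52 (SE 0.25). Rp2, whose product acts on ARL3, had 1096, 1348 and 1433 in wildtype and 584, 994 and 943 in knockout, a difference of −0.62 (SE 0.30).

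Of the RFX and FOXJ1 factor genes, 5 passed the filter and 3 had lower means. Groups did not overlap for 1 of the 5, Rfx7, which was lower in knockout, where 4.33% of all genes did so. Its log2 difference was −0.39 (SE 0.28). Rfx3, a factor of ciliogenesis that was chosen after its values were seen, as was Rfx7, had signals of 5122, 4895 and 7243 in wildtype and 2655, 7476 and 5089.9 in knockout, with overlap. Of 7 Hedgehog pathway genes tested, a pathway that signals through the cilium, 6 had higher means, with a median of 0.17. Of 11 motile axoneme genes that passed the filter, from 24 listed, 10 had higher means, with a median of 0.29. Within numbers 1, 2 and 3 the median ran from 1.49 to 0.33 and −0.57. Tekt1 and Rsph4a, both counted as higher, had mean signals of 89.2 and 104.1 in wildtype, under the filter limit of 105. In knockout they had 165 and 130.5, so the filter itself can favour higher means in this list. The heat map by pool gives each list in each library.

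**Figure D4:**
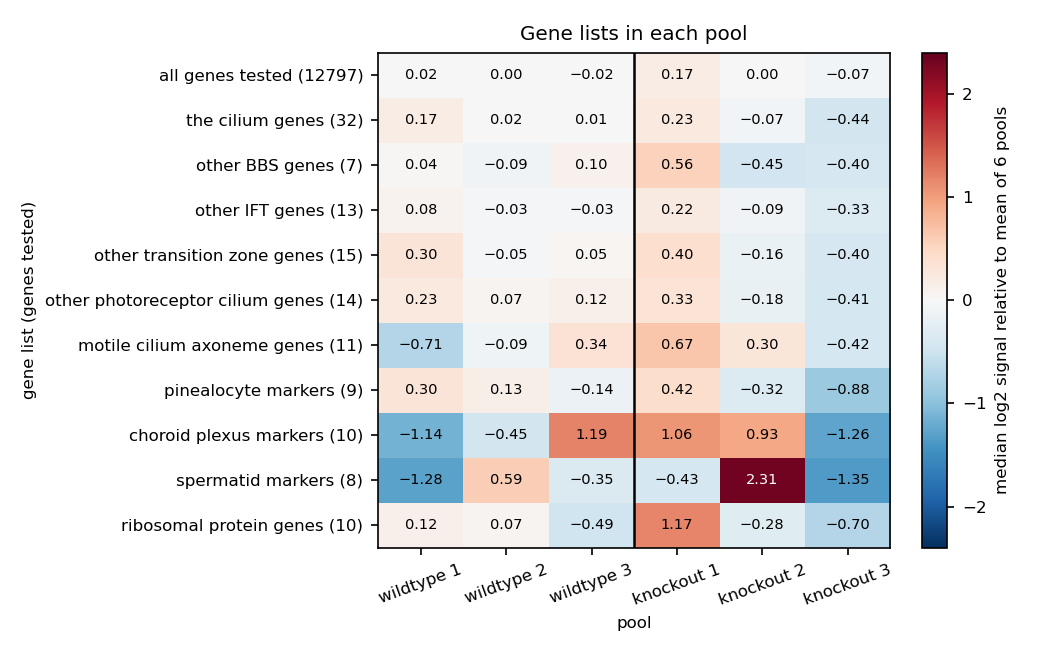
Median log2 signal of each gene list in each pool, relative to the mean of the 6 pools (colour scale and printed values). The number in brackets counts the genes tested. The cilium genes lie between −0.07 and 0.23 in 5 pools and at −0.44 in knockout pool 3, where pinealocyte markers lie at −0.88, choroid plexus markers at −1.26 and spermatid markers at −1.35.

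Knockout pool 3 was low for many of these lists at once. Its median relative to the 6 pools was −0.44 for the cilium genes, −0.88 for pinealocyte markers, −0.42 for motile axoneme genes and −1.26 for choroid plexus markers, against −0.07 for all genes. Wildtype pool 1 was also low in choroid plexus markers (−1.14) and had a cilium gene median of 0.17. The part of these other lists in the cilium gene values of knockout pool 3 was not tested.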

How the data were processed

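The 6 arrays were analysed from the table of probe set signals as deposited, a linear intensity for 45037 probe sets. GCOS is named without a version in the submitters' processing notes, and no source used here gives the signal algorithm. The 2% trimmed means of the deposited intensity columns lay between 499.5 and 499.96, so the arrays had been scaled alike. Medians lay between 132 and 184. Detection calls were not analysed here, and no depth exists for arrays: their number limits the precision (median SE 0.34 on the log2 scale).

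Signals were used as log2(signal + 38.6), the offset being the 20th percentile of all values. The offset shrinks differences of dim genes. Probe sets in the lowest 40% by mean, with a signal under 105, were left out. Genes were named by the platform annotation, with 34945 probe sets naming 1 gene, 932 several and 9160 none. The groups were compared in limma 3.58.1 under R 4.3.3 (lmFit, eBayes with trend, 4 residual degrees of freedom, two-sided, Benjamini-Hochberg over all genes). The code was tested on simulated data. An exact permutation test of 3 against 3 cannot go below p = 0.1, so none is given.

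The labels give pools of one number a common date. Over all genes, departures of same-numbered pools from their group mean had correlations of 0.32 (number 1), 0.25 (number 2) and 0.36 (number 3), so the numbers were taken to pair the pools, and a second fit used them as a block. The series text describes separate biological samplings.

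The genes, the other lists and the tests were chosen with earlier results of these data known, so no pattern here is independent support. All genes of the set were named, as were Neurod1, Crisp2, Ttr, Foxj1, Tph1 and Crx and, from each list, up to 3 genes with non-overlapping groups and an unadjusted p under 0.05, of which there were 0. Of 167 list entries, 20 had no probe set of their own. Alternatives changed the offset, scaling, filter, probe set rule, variance model, block and pools.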

Additional observations from a re-analysis of the deposited data

How the results depend on the processing

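Under 17 alternatives, 0 of the 32 cilium genes reached an adjusted p under 0.05, and 15 kept the sign of their difference in all of them. For genes with non-overlapping groups the sign cannot turn when pools are left out. The log2 difference of Neurod1 stayed between −5.04 and −4.13 when 1 pool was left out. Its call ended without any wildtype pool or without knockout pool 1, and when the 10th percentile served as offset (−4.78, limma adjusted p = 0.0528), which left 0 genes called (428 at an unadjusted p under 0.05). It also ended without both pools numbered 1 (−4.80), 2 (−4.98) or 3 (−4.23), again with 0 genes called and 723, 123 and 586 at an unadjusted p under 0.05. The count of genes called as lower was 0 to 1 with 1 pool left out. With the replicate block Neurod1 stayed the 1 gene called, no call changed, and unadjusted p under 0.05 rose from 428 to 798 genes.

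Cilium genes with non-overlapping groups numbered 3 with the mean of all probe sets (10.4% of all genes), 6 to 11 with 1 pool left out (15% to 28.2% of all genes), and 10, 11 and 14 without both pools numbered 1, 2 and 3 (36.5%, 23.4% and 35.2% of all genes). With all pools the share of all genes was 10.1%. The number with a lower mean was 15 to 25 with 1 pool left out, and 25 with arrays centred on their median.

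Signs turned in these cases, where the cause was not tested. With centred arrays the difference was −0.11 for Arl3, −0.088 for Bbs1, −0.14 for Ift20, −0.035 for Ift88 and −0.077 for Kif17. With the mean of probe sets it was 0.0079 for Bbs4 and −0.12 for Kif3a. With the 10th percentile offset Ift20 was at −0.0018, and with the 40th Ift57 and Ift74 were at 0.0020 and 0.0020. With quantile normalization Ift57 was at 0.073, Ift74 at 0.066 and Kif17 at −0.016. Without both pools numbered 1, Arl3 was at −0.51, Bbs1 at −0.012, Bbs9 at −0.056, Ift172 at 0.51 and Ift20 at −0.50. Without number 2, Ift122 was at −0.090, Ift88 at −0.092, Kif17 at −0.15, Kif3a at −0.13 and Nphp4 at −0.12. Without number 3, Bbs2 was at 0.22, Bbs4 at 0.10, Bbs7 at 0.17, Ift57 at 0.28 and Ift74 at 0.56.

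With 1 pool left out, values ran from −0.74 to 0.66 for Arl3, −0.11 to 0.22 for Bbs1, −0.46 to 0.20 for Bbs2, −0.46 to 0.23 for Bbs4, −0.35 to 0.048 for Bbs5, −0.39 to 0.036 for Bbs7, −0.027 to 0.42 for Bbs9, −0.085 to 0.59 for Ift122, −0.37 to 0.47 for Ift172, −0.59 to 0.33 for Ift20, −0.25 to 0.35 for Ift57, −0.44 to 0.62 for Ift74, −0.041 to 0.36 for Ift88, −0.073 to 0.14 for Kif17, −0.15 to 0.56 for Kif3a, −0.021 to 0.39 for Nphp4 and −0.17 to 1.10 for Rpgrip1.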
